A study of Mus musculus with 19 samples.

Results

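The genes described here are 28 genes of cholesterol synthesis, sterol uptake and SREBP2 control, followed in small-intestinal crypts of mice with and without neurotensin. They were chosen by symbol for their known place in the pathway, and the rule uses no measured value. Earlier results of these data were known when the list was made. Each symbol matched 1 Ensembl gene, so that 28 of the 55487 genes in the files are members. All 28 passed the filter on low counts and were among the 17875 genes tested.

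RNA of crypts was sequenced from 19 C57BL/6 mice, male and female, with 1 library per mouse. Neurotensin (NT) is a peptide hormone of enteroendocrine cells that is released when fat is eaten, and NT-/- mice lack its gene in every tissue. The 4 groups were NT+/+ mice fed ad libitum (NT+/+ AL, n = 5), NT-/- mice fed ad libitum (NT-/- AL, n = 4), NT+/+ mice fasted for 48 hours (NT+/+ Fast, n = 5) and NT-/- mice fasted for 48 hours (NT-/- Fast, n = 5). Crypts were isolated from the proximal part of the small intestine. The study describes its controls as sex- and age-matched littermates on standard chow. It gives an age range for its fasting experiments, but the labels give no age. Fasted mice had water only. The labels name the Nt genotype and strain, and no reporter allele, whereas the study describes Lgr5-EGFP mice of both genotypes. Replicate 5 of NT+/+ Fast carries NT+/+ in its title and NT-/- in its genotype label; it was grouped by its title. Its Nts level was 5.43 CPM, inside the 4.98 to 5.71 CPM of its group, whereas the 9 NT-/- mice ranged from 0.144 to 0.793 CPM. Levels within a gene are given as CPM, the count scaled to a common library total, with library sizes adjusted by the trimmed mean of M values (TMM).

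The libraries held between 9059457 and 35068711 counts (median, 18541819), and the shallowest was in NT-/- Fast. The lowest count of any of the 28 genes in any mouse was 46, for Mylip. Over the 4 groups the mean coefficient of variation between mice of a gene ranged from 8.9% for Ebp to 19.8% for Mvd (median, 13.4%). Markers of crypt epithelium such as Olfm4, Lgr5 and Lyz1 were present in every mouse. The 12 villus enterocyte markers were present too. In NT+/+ AL their summed level was 5977 to 12174 CPM, beside 11261 to 17068 CPM for the 9 crypt epithelium markers. Of the stromal and muscle markers, the summed level of all 11 was between 8.16 and 18.1 CPM in every mouse, and 3 of them (Pdgfra, Cdh5 and Des) were too low to test. The summed level of the 10 immune cell markers was between 76.9 and 246 CPM, and Adgre1, a macrophage marker, was too low to test.

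Cholesterol is built from acetyl-CoA by way of mevalonate, isoprenoid diphosphates, squalene and lanosterol. When sterols in the endoplasmic reticulum fall, SCAP carries the SREBP precursors to the Golgi, where they are cut, and the released SREBP2 fragment turns on nearly every enzyme of this route. INSIG proteins hold SCAP back when sterols are plentiful. Enterocytes add a further supply, because NPC1L1 in their brush border takes up cholesterol from the lumen.

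Compared per length, with the TPM values that the authors deposited (transcript abundance as a share of all transcripts in the library), Npc1l1 was the most abundant of the 28 genes in NT+/+ AL crypts, at 136 ± 29.2 TPM (SD, n = 5). Hmgcs1, which makes HMG-CoA, followed at 71.7 ± 6.96 TPM. Stard4, a soluble carrier that moves cholesterol between membranes, stood at 66.1 ± 8.19 TPM and overlapped Hmgcs1 between mice. Next came Lbr, a sterol reductase that also anchors chromatin at the nuclear envelope, at 62.0 ± 3.4 TPM, and Fdps, which makes farnesyl diphosphate, at 56.7 ± 6.58 TPM. Srebf2, the gene of SREBP2 itself, was at 49.7 ± 2.43 TPM. At the low end stood Mvd at 9.63 ± 0.835 TPM, Hsd17b7 at 9.68 ± 1.9 TPM and Tm7sf2 at 8.04 ± 0.674 TPM. Mylip, a ubiquitin ligase that marks lipoprotein receptors for degradation and is a target of the liver X receptors, was the lowest at 1.4 ± 0.155 TPM.

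**Figure D1:**
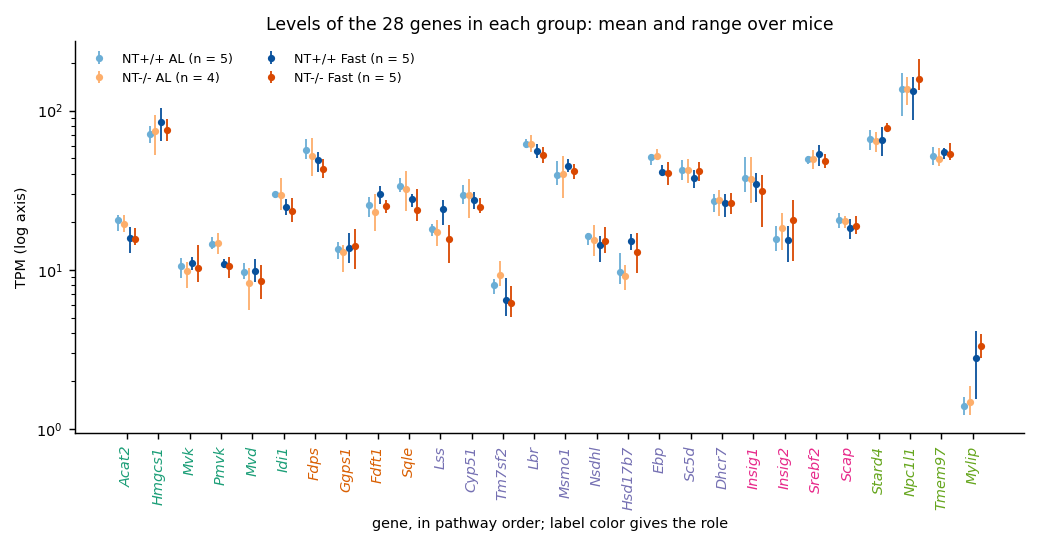
Levels of the 28 genes in TPM (vertical log axis) in each of the 4 groups, in pathway order; points are means, and lines run from the lowest to the highest mouse. Npc1l1 is the highest and Mylip the lowest in every group, and the group ranges of most genes overlap.

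In the regulatory DNA of these genes, SREBP2 binds sterol regulatory elements, usually beside sites for NF-Y and Sp1. The RefSeq promoter windows (GRCm38.p6, 250 bases before to 50 bases after the start) cover 24 of the 28 genes; Fdft1, Fdps, Sqle and Stard4 have none there. Each motif was searched on both strands. The element TCACNCCAC was found for 1 of the 24 genes, Hmgcs1 (4.17%; 1.44% of all 27025 genes in the table). The shorter CACNCCAC, which lies inside the longer one, was found for 3 of 24, Hmgcs1, Insig1 and Acat2 (12.5%; 7.12% of all genes). The NF-Y box CCAAT was found for 22 of 24, all but Acat2 and Scap (91.7%; 41.1% of all genes). The Sp1 box GGGCGG was found for 21 of 24, all but Ggps1, Npc1l1 and Pmvk (87.5%; 38.2% of all genes). The windows printed next are those around the sterol element matches of Hmgcs1 and Acat2 and, for comparison, the NF-Y box of Hsd17b7 and Mylip, which were the genes that rose in both genotypes. Each is printed 5′ to 3′ on the strand of its gene, and the capitals mark the match or its reverse complement.
Hmgcs1 (chr13:119690184-119690252, plus strand): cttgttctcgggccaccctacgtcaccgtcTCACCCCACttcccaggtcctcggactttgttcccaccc
Acat2 (chr17:12960748-12960815, minus strand): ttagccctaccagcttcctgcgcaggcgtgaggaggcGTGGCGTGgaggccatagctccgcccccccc
Hsd17b7 (chr1:169969244-169969308, minus strand): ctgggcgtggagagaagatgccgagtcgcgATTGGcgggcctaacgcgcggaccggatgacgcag
Mylip (chr13:45389645-45389709, plus strand): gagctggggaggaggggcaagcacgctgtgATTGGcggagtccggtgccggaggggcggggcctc
The start from which the RefSeq windows are cut and the first base of the gene in GENCODE M21 differ for several of these genes. The match ended 128 bases before the RefSeq start and 156 before the GENCODE start in Hmgcs1, and 45 and 23 bases before them in Acat2. The NF-Y box ended 68 and 32 bases before them in Hsd17b7, and 62 bases before both in Mylip. The Insig1 match ended 1 base before the RefSeq start but began 40 bases after the GENCODE start, inside the annotated gene, and its sequence is not shown. These matches describe letters in a window and were not tested as binding sites.

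The effect of fasting was examined first in NT+/+ mice. After the fast, 3 of the 28 genes were higher (Mylip, Hsd17b7 and Lss) and 1 was lower (Ebp), by edgeR's quasi-likelihood test at an adjusted p under 0.05. That is 14.3% of the 28 genes, beside 21.6% of all genes tested (11.2% higher and 10.4% lower). Fits with a term for the replicate number called more of the 28 in both genotypes, and their share could then exceed that of all genes. Those counts are given at the end, and the calls here are from the fit without that term. The log2 fold change was below 0 for 16 of the 28 (50.9% of all genes) with a median of -0.03, and the median size of a change, whatever its sign, was 0.17, beside 0.23 for all genes. The 95% interval of the change lay within 1.5-fold in either direction for 22 of the 28 genes (78.6%), beside 46.5% of all genes. The summed level of the 28 genes ranged from 2202 to 2447 CPM in NT+/+ AL (median, 2347) and from 2196 to 2466 CPM in NT+/+ Fast (median, 2412), so the sums of the fed and fasted mice overlapped. These were whole crypt preparations, in which fewer cells of a type and less RNA per cell cannot be told apart.

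In NT-/- mice, 2 of the 28 genes rose with fasting (Mylip and Hsd17b7) and 3 fell (Tm7sf2, Pmvk and Ebp). This made 17.9% of the list, beside 25.2% of all genes tested (12.5% higher and 12.6% lower). The log2 fold change was below 0 for 14 of the 28 genes (52.4% of all genes), with a median of -0.02, and the interval lay within 1.5-fold for 23 of the 28 genes (82.1%), beside 42.2% of all genes. The summed level was 1976 to 2482 CPM in NT-/- AL (median, 2392) and 2113 to 2657 CPM in NT-/- Fast (median, 2414). The fed and fasted groups of the 2 genotypes share no mouse, although 1 fit estimated the spread for all of them. In the 2 fasting comparisons 26 of the 28 genes had the same sign (92.9%; 80.8% of all genes), 3 were past the threshold in both (10.7%; 16.4% of all genes) and 22 in neither.

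**Figure D2:**
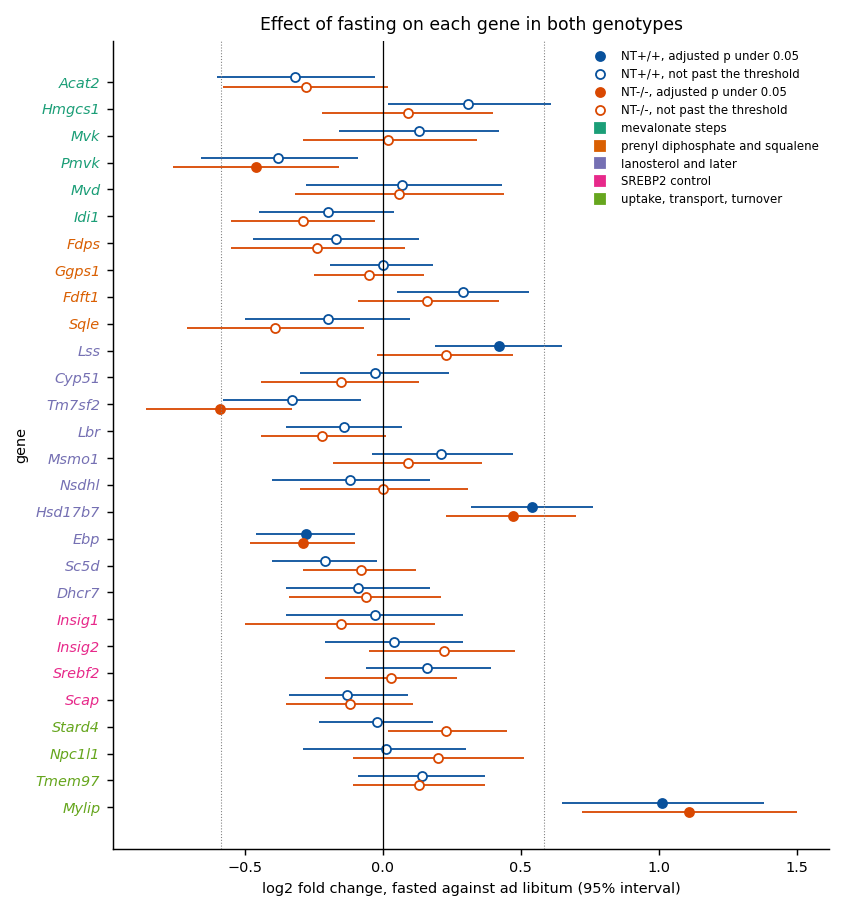
Log2 fold change of each of the 28 genes, fasted against ad libitum fed, in NT+/+ and NT-/- mice, with 95% intervals; filled points have an adjusted p under 0.05 and dotted lines mark 1.5-fold. Mylip stands alone near 1 on the log2 scale in both genotypes, at 1.01 and 1.11, and most intervals cross 0.

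Mylip showed the largest change of the 28 genes. In NT+/+ AL its level was 3.55, 3.65, 3.04, 3.45 and 3.58 CPM in replicates 1 to 5, and in NT+/+ Fast it was 6.6, 7.3, 6.53, 9.82 and 4.65 CPM. Every fasted mouse was above every fed mouse, and replicate 5, whose labels disagree, was the lowest of the fasted mice. The log2 fold change was 1.01 ± 0.17 (SE; adjusted p = 0.000389). In NT-/- AL the 4 mice had 3.39, 3.9, 3.27 and 4.53 CPM, and in NT-/- Fast the 5 mice had 10.8, 6.81, 7.29, 8.38 and 7.29 CPM. These groups did not overlap either, and the log2 fold change was 1.11 ± 0.19 (adjusted p = 0.000248). Non-overlapping groups were found for 14.6% of all genes tested in NT+/+ mice and for 21.3% in NT-/- mice; among the 28 they were found for 4 genes in each genotype.

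Hsd17b7, a ketosteroid reductase that works with NSDHL in removing a pair of methyl groups from the sterol ring, also rose in both genotypes. Its level in NT+/+ AL was 25.2, 24.6, 22.1, 20.7 and 28.2 CPM, and in NT+/+ Fast 32.6, 39.9, 34.5, 30.8 and 38.1 CPM. The groups did not overlap, and the log2 fold change was 0.54 ± 0.11 (adjusted p = 0.00114). Values in NT-/- mice were 23.5, 25.1, 19.3 and 29.0 CPM when fed and 29.7, 36.5, 33.9, 34.5 and 32.9 CPM when fasted. The highest fed mouse was just under the lowest fasted mouse, and the log2 fold change was 0.47 ± 0.11 (adjusted p = 0.00469). The partner enzyme Nsdhl had log2 fold changes of -0.12 ± 0.14 in NT+/+ mice and 0.00 ± 0.14 in NT-/- mice (adjusted p = 0.595 and 0.988), and Msmo1, the oxidase of the same demethylation, 0.21 ± 0.12 and 0.09 ± 0.13 (adjusted p = 0.224 and 0.662).

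Lss, lanosterol synthase, closes squalene epoxide into the first sterol. It was at 48.5, 38.8, 48.5, 42.4 and 48.9 CPM in NT+/+ AL and at 68.7, 52.9, 67.9, 50.6 and 63.5 CPM in NT+/+ Fast. All fasted mice were above all fed mice, with a log2 fold change of 0.42 ± 0.11 (adjusted p = 0.00988). The NT-/- mice had 39.1, 49.7, 36.5 and 45.3 CPM when fed and 57.1, 44.7, 47.3, 43.1 and 56.5 CPM when fasted. Those groups overlapped, and the log2 fold change of 0.23 ± 0.12 did not pass the threshold (adjusted p = 0.173). The test of the difference between the genotypes gave -0.19 ± 0.16, with an interval of -0.53 to 0.14. The deposited TPM of Lss rose from 17.9 ± 1.14 to 23.9 ± 3.2 in NT+/+ mice as means, but was 17.3 ± 3.26 in NT-/- AL and 15.7 ± 2.91 in NT-/- Fast, so that in NT-/- mice the TPM and CPM means moved in opposite directions. TPM divides by an effective length that depends on the transcripts to which RSEM assigned the reads.

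**Figure D3:**
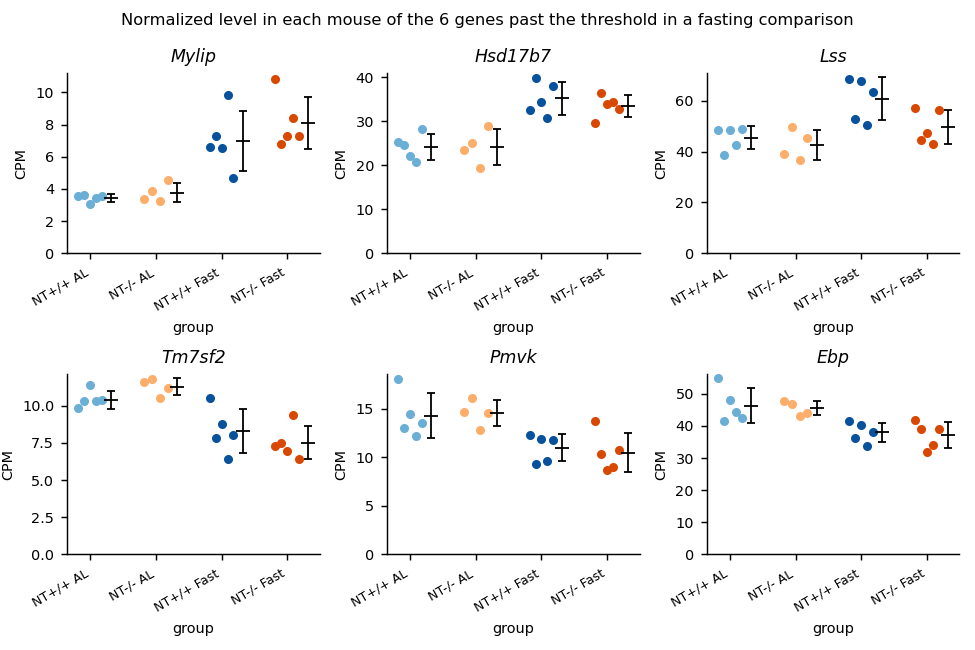
CPM in each mouse (points), with group mean and SD (black), for the 6 genes past the threshold in at least 1 fasting comparison; vertical axes start at 0. All fasted mice lie above all fed mice of the same genotype for Mylip and Hsd17b7, and all of them below for Ebp.

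The genes that fell with fasting did so by less than Mylip rose. Tm7sf2, a sterol reductase of the endoplasmic reticulum with the same catalytic activity as LBR, was at 11.6, 11.8, 10.5 and 11.2 CPM in NT-/- AL and at 7.32, 7.49, 6.94, 9.37 and 6.45 CPM in NT-/- Fast. The groups did not overlap, and the log2 fold change was -0.59 ± 0.13 (adjusted p = 0.00207). In NT+/+ mice it was at 9.83, 10.3, 11.4, 10.3 and 10.4 CPM when fed and 10.5, 7.85, 8.75, 6.4 and 8.01 CPM when fasted. There the first fasted mouse lay among the fed mice, and the log2 fold change of -0.33 ± 0.12 missed the threshold (adjusted p = 0.0564). Of the 29 alternatives run for it in NT+/+ mice, 6 put it past the threshold. Lbr had log2 fold changes of -0.14 ± 0.10 and -0.22 ± 0.11 in NT+/+ and NT-/- mice (adjusted p = 0.353 and 0.15). The exons of Tm7sf2 overlap those of Vps51 on the same strand, so that reads in the shared bases are divided by RSEM's model; Vps51 was at 23.7 to 30.2 TPM in NT+/+ AL and at 20.2 to 30.5 TPM in NT-/- Fast.

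Ebp, the sterol isomerase that moves the double bond of the second ring, had the smallest spread between mice of the 28 genes. In NT+/+ mice it was at 55.0, 41.6, 48.0, 44.3 and 42.5 CPM when fed and at 41.5, 36.4, 40.2, 33.8 and 38.1 CPM when fasted. The highest fasted mouse was just under the lowest fed mouse, and the log2 fold change was -0.28 ± 0.09 (adjusted p = 0.0237). The NT-/- mice had 47.8, 47.0, 43.2 and 44.2 CPM when fed and 41.9, 39.0, 32.0, 34.1 and 39.1 CPM when fasted, without overlap, with a log2 fold change of -0.29 ± 0.09 (adjusted p = 0.0255). Leaving out 1 mouse could end either call: in NT+/+ mice replicate 1 or 3 of AL or replicate 2 or 4 of Fast (adjusted p up to 0.0795), and in NT-/- mice replicate 1 or 2 of AL or replicate 3 or 4 of Fast (adjusted p up to 0.0814).

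Pmvk, phosphomevalonate kinase, was at 14.7, 16.1, 12.8 and 14.6 CPM in NT-/- AL and at 13.8, 10.3, 8.67, 8.98 and 10.8 CPM in NT-/- Fast. The first fasted mouse lay within the fed range, and the log2 fold change was -0.46 ± 0.14 (adjusted p = 0.0223). The call was lost without replicate 2 of NT-/- AL or replicate 3 or 4 of NT-/- Fast (adjusted p up to 0.105). In NT+/+ mice Pmvk was at 18.1, 13.0, 14.5, 12.2 and 13.5 CPM when fed and at 12.3, 9.35, 11.9, 9.59 and 11.8 CPM when fasted. Its log2 fold change of -0.38 ± 0.13 was close to the threshold on the other side (adjusted p = 0.0519), and 9 of the 29 alternatives run for it put it past the threshold.

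The rest of the mevalonate steps were not past the threshold in either genotype. Of the 29 alternatives run for each, 3 put Acat2 past it in NT+/+ mice and 1 in NT-/- mice. For Hmgcs1 it was 1 in NT+/+ mice, and for Idi1 4 in NT-/- mice. Acat2, which joins acetyl-CoA units in the cytosol, had log2 fold changes of -0.32 ± 0.14 in NT+/+ mice and -0.28 ± 0.15 in NT-/- mice (adjusted p = 0.106 and 0.174). Its neighbor Acat3, a close copy with which it may share reads, was at 0.33 to 1.94 TPM over all mice, against 12.7 to 18.6 TPM for Acat2 in NT+/+ Fast alone. Hmgcs1, the gene whose promoter window held the full sterol element, was at 219, 195, 199, 163 and 198 CPM in NT+/+ AL and at 255, 271, 189, 201 and 295 CPM in NT+/+ Fast. The groups overlapped, and its log2 fold change was 0.31 ± 0.14 (adjusted p = 0.121). Levels in NT-/- mice were 164, 245, 157 and 233 CPM when fed and 209, 215, 181, 200 and 257 CPM when fasted, where the fed mice spread more widely than the fasted ones, and the log2 fold change was 0.09 ± 0.15 (adjusted p = 0.707). Mvk, the first of the mevalonate kinases, had 0.13 ± 0.14 and 0.02 ± 0.15, Mvd, the decarboxylase, had 0.07 ± 0.17 and 0.06 ± 0.18, and Idi1, which isomerizes isopentenyl diphosphate, had -0.20 ± 0.12 and -0.29 ± 0.12.

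None of the 4 genes from isopentenyl diphosphate to squalene epoxide passed the threshold in either genotype. Sqle, squalene epoxidase, a rate-limiting enzyme of the later route, was at 97.3, 71.3, 81.8, 70.4 and 84.4 CPM in NT+/+ AL and at 70.0, 68.6, 75.1, 57.7 and 81.2 CPM in NT+/+ Fast, with a log2 fold change of -0.20 ± 0.14 (adjusted p = 0.348). The NT-/- mice had 70.3, 97.3, 59.7 and 83.2 CPM when fed and 61.2, 54.6, 50.5, 48.0 and 80.7 CPM when fasted; replicate 5 of the fasted mice stood above the other 4, and the log2 fold change was -0.39 ± 0.15 (adjusted p = 0.0655). Of the 29 alternatives run for Sqle in NT-/- mice, 6 put it past the threshold. Fdft1, squalene synthase, had log2 fold changes of 0.29 ± 0.11 and 0.16 ± 0.12 in NT+/+ and NT-/- mice (adjusted p = 0.0745 and 0.356). In NT+/+ mice 2 of its 29 alternatives put Fdft1 past the threshold. Fdps had -0.17 ± 0.14 and -0.24 ± 0.15. Ggps1, which makes geranylgeranyl diphosphate for protein prenylation, had intervals of -0.19 to 0.18 in NT+/+ mice and -0.25 to 0.15 in NT-/- mice.

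Among the remaining late enzymes, Cyp51, which takes off a further methyl group of lanosterol, had log2 fold changes of -0.03 ± 0.13 in NT+/+ and -0.15 ± 0.14 in NT-/- mice. Sc5d, a desaturase, had -0.21 ± 0.09 and -0.08 ± 0.10 (adjusted p = 0.114 and 0.588). Dhcr7, whose product finishes the route from 7-dehydrocholesterol, had -0.09 ± 0.12 and -0.06 ± 0.13, with intervals of -0.35 to 0.17 and -0.34 to 0.21. None of these 3 passed the threshold in either genotype, but 4 of the 29 alternatives put Sc5d past it in NT+/+ mice.

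The control genes of the pathway did not pass the threshold in either fasting comparison. Insig1, itself a target of SREBP2 that is often read as a gauge of its activity, was at 71.2, 64.4, 84.7, 62.7 and 88.1 CPM in NT+/+ AL and at 63.2, 78.6, 77.0, 60.8 and 82.6 CPM in NT+/+ Fast. Levels in NT-/- mice were 58.7, 86.7, 56.2 and 91.3 CPM when fed and 48.2, 58.1, 74.8, 68.8 and 78.4 CPM when fasted. The groups overlapped in both genotypes, and the log2 fold changes were -0.03 ± 0.15 (interval, -0.35 to 0.29) and -0.15 ± 0.16 (interval, -0.50 to 0.19). Srebf2 had 0.16 ± 0.11 and 0.03 ± 0.11, Scap had -0.13 ± 0.11 and -0.12 ± 0.11, and Insig2, whose transcript is known to respond to insulin in liver, had 0.04 ± 0.12 and 0.22 ± 0.13. All 8 intervals of these 4 genes lay within 1.5-fold in either direction.

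Of the uptake and transport genes other than Mylip, none passed the threshold. Npc1l1 was at 418, 517, 530, 636 and 529 CPM in NT+/+ AL and at 468, 600, 572, 607 and 395 CPM in NT+/+ Fast, with overlapping groups and a log2 fold change of 0.01 ± 0.14. The NT-/- mice had 659, 486, 443 and 578 CPM when fed and 636, 762, 527, 569 and 622 CPM when fasted, with a log2 fold change of 0.20 ± 0.15 (adjusted p = 0.355). Stard4 had -0.02 ± 0.10 and 0.23 ± 0.10 (adjusted p = 0.890 and 0.107), and 1 of the 29 alternatives put it past the threshold in NT-/- mice. Tmem97, which binds sterols and takes part in the handling of the lysosomal transporter NPC1, had 0.14 ± 0.11 and 0.13 ± 0.12.

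Markers of villus enterocytes moved with fasting. In NT+/+ mice 10 of 12 were higher, with a median log2 fold change of 0.97; examples were Fabp1, a fatty acid carrier (2.09 ± 0.23, adjusted p = 3.8e-06), Mttp, which loads lipid onto lipoproteins (1.03 ± 0.16, adjusted p = 0.000147), and Enpep, a brush border peptidase (1.00 ± 0.16, adjusted p = 0.00024). All 12 were higher in NT-/- mice, with a median of 1.24. Their summed level was 5977 to 12174 CPM in NT+/+ AL, 8836 to 12739 CPM in NT-/- AL, 12526 to 23705 CPM in NT+/+ Fast and 21166 to 27981 CPM in NT-/- Fast, and no marker of the list was at 0 in any mouse. Of the 9 crypt epithelium markers, 2 were called in each genotype (22.2%, beside 21.6% and 25.2% of all genes), and both fell. Olfm4, a marker of crypt base cells, had -0.63 ± 0.21 in NT+/+ and -0.92 ± 0.22 in NT-/- mice (adjusted p = 0.0322 and 0.00409). Mki67, a proliferation marker, had -0.46 ± 0.09 and -0.59 ± 0.09 (adjusted p = 0.000866 and 0.000119). The median of the 9 was 0.04 in NT+/+ mice, with 5 above 0, and -0.03 in NT-/- mice, with 2 above 0. Olfm4 lost its call in NT+/+ mice without replicate 3 or 5 of AL or replicate 2, 3 or 4 of Fast (adjusted p up to 0.0976). The part of these shifts in the changes of Mylip, Hsd17b7, Lss, Tm7sf2, Pmvk and Ebp was not tested. Of the immune cell markers 1 rose, Gzma in NT-/- mice (0.97 ± 0.33, adjusted p = 0.0356), a call that was lost without replicate 2, 3 or 4 of NT-/- AL or replicate 3 or 5 of NT-/- Fast (adjusted p up to 0.115). No stromal or muscle marker was called in either genotype.

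Lists of neighboring pathways, chosen with earlier results of these data known, were fitted together with the 28 genes. In the SREBP1 fatty acid synthesis list, 6 of 10 genes fell in NT+/+ mice (60%; 10.4% of all genes fell) and 7 of 10 in NT-/- mice (70%; 12.6% of all genes fell), and none rose, with medians of -0.38 and -0.60. Scd2, a desaturase, had log2 fold changes of -4.19 ± 0.34 in NT+/+ mice (adjusted p = 6.13e-08) and -4.59 ± 0.36 in NT-/- mice (adjusted p = 3.19e-08). Elovl6, which elongates palmitate, had -0.60 ± 0.12 and -0.82 ± 0.12 (adjusted p = 0.0011 and 8.96e-05). Fads1, another desaturase, had -0.57 ± 0.14 and -0.70 ± 0.15 (adjusted p = 0.00652 and 0.00207), and Fasn, fatty acid synthase, -0.43 ± 0.12 and -0.83 ± 0.13 (adjusted p = 0.0172 and 0.000123). In the same fits the median of the 28 cholesterol genes stayed at -0.03 and -0.02.

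In the list of sterol efflux, esterification and lysosomal export genes, 5 of 18 rose and 1 fell in NT+/+ mice (33.3%; 21.6% of all genes were called), and 4 rose in NT-/- mice (22.2%; 25.2% of all genes), with medians of 0.17 and 0.11. The share in NT-/- mice was thus below that of all genes. Lipa, the lysosomal lipase that frees cholesterol from its esters, rose by 0.95 ± 0.19 on the log2 scale in NT+/+ mice and 1.44 ± 0.21 in NT-/- mice (adjusted p = 0.00152 and 5.69e-05). Abcg8, a half-transporter that returns sterols to the lumen, rose by 0.56 ± 0.15 and 0.76 ± 0.17 (adjusted p = 0.0129 and 0.00227). Gramd1b, which carries cholesterol from the plasma membrane to the endoplasmic reticulum, rose by 0.89 ± 0.24 and 1.31 ± 0.26 (adjusted p = 0.0102 and 0.000964). Gramd1c, of the same family, fell by 0.52 ± 0.14 in NT+/+ mice (adjusted p = 0.011). The part of the villus enterocyte shift in the changes of this list was not tested.

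In the list of 12 other SREBP control genes the median log2 fold change was 0.01 in NT+/+ mice and -0.00 in NT-/- mice. Pgrmc1, a heme-binding membrane protein that partners cytochrome P450 enzymes, rose by 0.43 ± 0.08 and 0.68 ± 0.09 on the log2 scale (adjusted p = 0.000969 and 1.81e-05). Rnf145, a sterol-responsive ubiquitin ligase, had log2 fold changes of -0.45 ± 0.09 and -0.46 ± 0.10 (adjusted p = 0.00152 and 0.00156). Of 14 genes of the isoprenoid branch, 1 rose and 2 fell in NT+/+ mice, and 1 rose and 3 fell in NT-/- mice. These shares, 21.4% and 28.6%, were close to the 21.6% and 25.2% of all genes. Fnta, a subunit of farnesyltransferase, rose by 0.20 ± 0.06 and 0.32 ± 0.06 (adjusted p = 0.0192 and 0.00107). Dhdds, which builds the dolichol chain, had -0.39 ± 0.08 and -0.38 ± 0.08 (adjusted p = 0.00106 and 0.00192), and Pdss2, which builds the tail of ubiquinone, -0.40 ± 0.08 and -0.26 ± 0.09 (adjusted p = 0.00153 and 0.0318). Rabggtb, a subunit of the transferase that prenylates Rab proteins, had -0.24 ± 0.07 in NT-/- mice (adjusted p = 0.0194). The call of Fnta in NT+/+ mice was lost without replicate 2 of AL or replicate 1 of Fast (adjusted p up to 0.0533). In the NT-/- comparison Pdss2 was lost without replicate 2, 3 or 4 of AL or replicate 1, 3 or 4 of Fast (adjusted p up to 0.0899), and Rabggtb without replicate 2 or 3 of AL or replicate 1 or 5 of Fast (adjusted p up to 0.0738).

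**Figure D4:**
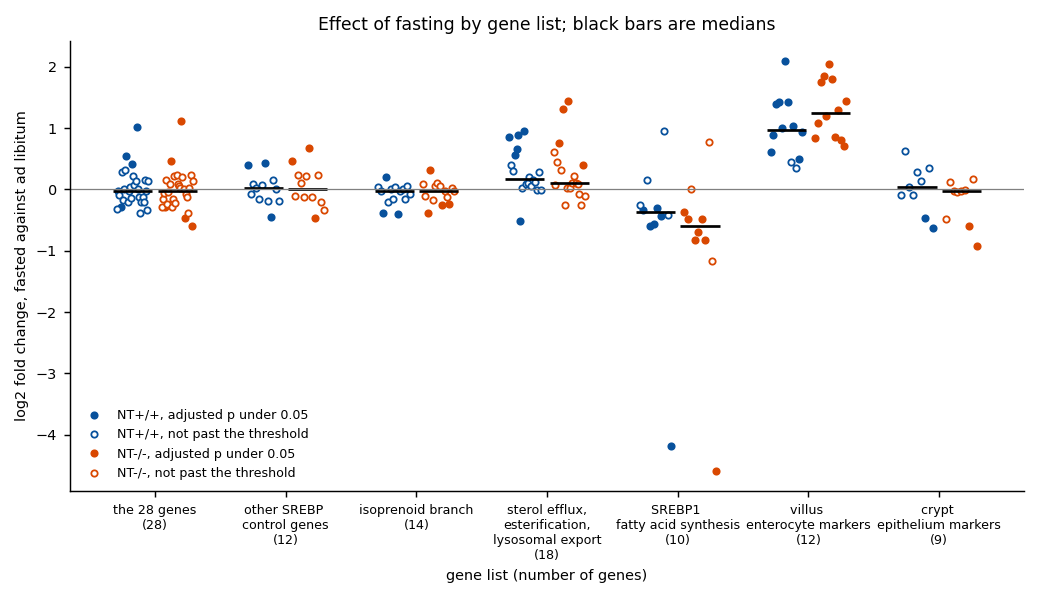
Log2 fold change with fasting of every tested gene of 7 lists in NT+/+ and NT-/- mice; each point is a gene, filled where the adjusted p is under 0.05, and black bars are list medians. The medians of the 28 cholesterol genes lie at -0.03 and -0.02, those of the fatty acid synthesis list at -0.38 and -0.60, and those of the villus enterocyte markers at 0.97 and 1.24.

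Loss of neurotensin was compared next in mice fed ad libitum. No gene of the 28 differed between NT-/- AL and NT+/+ AL by edgeR's test, which called 1 gene of all those tested (0.00559%), Nts itself. At an unadjusted p under 0.05 the count among the 28 was also 0, beside 1.67% of all genes, and DESeq2 called none of the 28. The log2 fold changes ran from -0.23 for Mvd to 0.19 for Insig2, and were below 0 for 20 of the 28 (50.4% of all genes), with a median of -0.02. No gene of the 28 had groups that did not overlap (0.694% of all genes). For 27 of the 28 genes the interval lay within 1.5-fold in either direction (60.5% of all genes); the exception was Mvd, with an interval of -0.61 to 0.15. For Hmgcs1 the interval was -0.28 to 0.34, for Sqle -0.38 to 0.25, for Insig1 -0.36 to 0.32, and for Npc1l1 -0.27 to 0.35. Nts, the check of the genotype, was lower by 4.70 ± 0.36 on the log2 scale (adjusted p = 5.82e-07).

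In fasted mice none of the 28 genes differed by genotype at the adjusted threshold, and again Nts was the 1 gene called of all genes tested (0.00559%; -3.56 ± 0.32, adjusted p = 1.36e-05). DESeq2 called none of the 28 either; it gave Tm7sf2 and Mylip no adjusted p. At an unadjusted p under 0.05 there were 3 members (10.7%; 9.14% of all genes). Insig2 was at 22.9, 22.9, 20.3, 22.0 and 22.3 CPM in NT+/+ Fast and at 22.8, 34.5, 22.2, 32.0 and 31.6 CPM in NT-/- Fast. Of the NT-/- mice, 3 stood well above the NT+/+ range and 2 within it, and the log2 fold change was 0.37 ± 0.12 by edgeR's test (adjusted p = 0.344). The 2 shallowest libraries were replicates 2 and 4 of NT-/- Fast; without both of them the log2 fold change of Insig2 was 0.21 (adjusted p = 0.631). Lss differed by -0.28 ± 0.11 (adjusted p = 0.419), and Stard4, at 230, 238, 170, 207 and 231 CPM in NT+/+ Fast and 261, 243, 240, 215 and 294 CPM in NT-/- Fast, differed by 0.22 ± 0.10 (adjusted p = 0.489). The log2 fold change was below 0 for 20 of the 28 genes, and for all 6 of the mevalonate steps, with a median of -0.08, beside 52.7% of all genes below 0 and a median of -0.0126. The intervals of 26 of the 28 genes lay within 1.5-fold in either direction (92.9%; 57.4% of all genes), and none had groups that did not overlap (1.56% of all genes). The fitted genotype change of all 12 villus enterocyte markers was above 0 in fasted mice (median, 0.41), with none past the threshold; their part in the values of Insig2, Lss and Stard4 was not tested.

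A contrast of the 2 fasting responses tested whether they differed by genotype. None of the 28 passed the adjusted threshold, nor did any gene of all those tested, and none had an unadjusted p under 0.05 (2.71% of all genes did); DESeq2 called no gene in this comparison. The estimates, NT-/- minus NT+/+, ran from -0.26 ± 0.18 for Tm7sf2 (interval, -0.63 to 0.10) to 0.26 ± 0.14 for Stard4 (interval, -0.04 to 0.56), with 19 of 28 below 0 (52% of all genes) and a median of -0.07. For Mylip the estimate was 0.10 ± 0.25, with an interval of -0.43 to 0.63, and for Hsd17b7 -0.07 ± 0.15, with an interval of -0.39 to 0.25. The interval lay within 1.5-fold for 22 of the 28 genes (46% of all genes). The genes that passed the threshold in 1 genotype alone, Lss, Tm7sf2 and Pmvk, were therefore not shown to respond differently in the other.

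Between mice of the same group, many of the 28 genes were high or low together. The counts that follow were not made over all genes tested, so they are not shown to be particular to the 28. In NT+/+ AL, replicate 1 had the highest level of its group for 16 of the 28 genes, and replicate 4 the lowest for 14. In NT-/- AL, replicate 3 was the lowest for 22 of 28 and the highest for none, while replicate 2 was the highest for 15 and replicate 4 for 10. In NT+/+ Fast, replicate 4 was the lowest for 19, and replicates 1 and 5 were each the highest for 12. In NT-/- Fast, replicate 5 was the highest for 17. The mean over the 28 genes of a mouse's difference from its group mean, in log2(CPM + 1), ran from -0.19 in replicate 3 of NT-/- AL to 0.19 in replicate 5 of NT-/- Fast. Their depth was 19966426 and 19707362 counts. The summed villus enterocyte markers of NT+/+ AL were 5977 CPM in replicate 1 and 12174 CPM in replicate 4. In NT+/+ Fast they were 12526 and 14434 CPM in replicates 1 and 5, and 23464 CPM in replicate 4. Replicate 3 of NT-/- AL had the lowest sum of its group, 8836 CPM. Replicate 5 of NT-/- Fast had 27060 CPM, in a group range of 21166 to 27981 CPM. The deposited files carry numbers of their own, and replicates 3 and 4 of NT-/- AL have file numbers 4 and 5. For file number 4 the mean difference was -0.11 in NT+/+ AL, -0.19 in NT-/- AL, -0.17 in NT+/+ Fast and -0.08 in NT-/- Fast. For file number 5 it was 0.01, 0.11, 0.09 and 0.19 in the same order. File numbers 1, 2 and 3 each had values of both signs. What the numbers mark is not given, and the part of depth or villus cells in these differences was not tested.

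**Figure D5:**
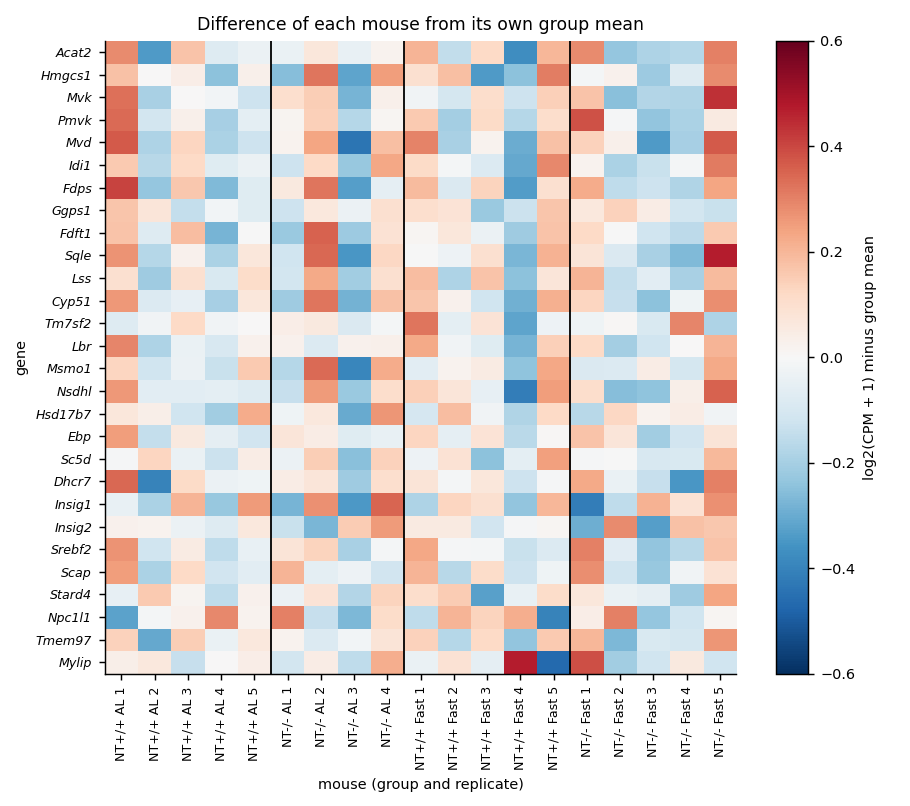
Difference of each mouse from the mean of its own group, in log2(CPM + 1), for the 28 genes (rows, in pathway order) and 19 mice (columns, grouped by black lines). Replicate 3 of NT-/- AL is below its group mean for nearly every gene, and replicate 5 of NT-/- Fast is above it for 24 of 28.

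Reads could not always be assigned to 1 gene. The exons of 10 of the 28 genes overlap exons of another annotated gene, 3 on the same strand and 8 on the opposite strand (GENCODE M21, GRCm38), and no strand setting of the counting is given in the sources used here. Of the genes past the threshold, this touches Tm7sf2, as given above, and Lss (chr10:76531588-76557138, plus strand), which overlaps 4930483K19Rik on the opposite strand; that gene had at most 16 counts in any mouse. Mylip (chr13:45389742-45412022, plus strand), Hsd17b7 (chr1:169949535-169969241, minus strand), Ebp (chrX:8185329-8193512, minus strand) and Pmvk (chr3:89454541-89469013, plus strand) overlap no exon of another gene.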

How the data were processed

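Ribosomal RNA-depleted libraries were sequenced by the authors as single-end reads, trimmed with Trimmomatic 0.39 and mapped with RSEM to Ensembl transcripts of GRCm38; the RSEM version and strand setting are not given in the sources used here. The authors deposited, for each gene and mouse, an expected count from RSEM without normalization and a TPM value that RSEM scaled by effective length and to a fixed total. TPM was used for levels between genes and, between groups, for Lss and Vps51. No test used TPM.

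Expected counts were rounded. Of 55487 genes, the 17875 that passed filterByExpr were fitted with edgeR (version 4.0.16; R 4.3.3): TMM scaling, 1 coefficient per group, no covariate, 15 residual degrees of freedom, quasi-likelihood test, Benjamini-Hochberg adjustment over all genes tested and a threshold of 0.05. The common dispersion was 0.0357, a biological coefficient of variation of 18.9%. Standard errors were obtained from the log2 fold change and the F statistic (its square root being their ratio), and 95% intervals use the degrees of freedom of the test. The script was tested on simulated data. Depth per mouse was 9059457 to 35068711 counts.

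The 28 genes were given by symbol, and these and the other lists were chosen with earlier results of these data known. Named were all 28, Nts and, of each other list in each fasting comparison, the called genes with the smallest p, at most 3 in each direction. Promoter sequences are from RefSeq. Alternatives were DESeq2 (version 1.42.0), upper quartile scaling, no filter, a minimum of 10 counts in each library, a replicate block, sex as a covariate (without the mouse whose sex is not labelled), the mouse with conflicting labels regrouped, only the groups compared, and each mouse left out; leaving out the 2 shallowest libraries was added after seeing the data.

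Replicates are separate mice. Some genes of this pathway are not reported here.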

Additional observations from a re-analysis of the deposited data

Results flagged for a closer look

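In 112 sets of values, 1 for each of the 28 genes in each group, 2 had a mouse set far apart from the others of its group by Dixon's criterion, which chance alone meets in about 1 of 20 sets. Nsdhl was at 35.4 CPM in replicate 1 of NT+/+ AL, whereas the other 4 mice lay between 27.7 and 28.2 CPM. Lbr was at 157 CPM in replicate 2 of NT-/- AL, whereas the other 3 mice lay between 169 and 170 CPM. None of the 28 genes passed the adjusted threshold for a difference between the genotypes in the response to fasting.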

How the results depend on the processing

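The counts of genes past the threshold were the results that moved. In NT+/+ mice 4 genes were called, and 3 to 6 when each mouse was left out in turn; in NT-/- mice 5 were called, and 3 to 7 when each mouse was left out, with 3 left (Tm7sf2, Hsd17b7 and Mylip) without replicate 2 of NT-/- AL, replicate 3 or replicate 4 of NT-/- Fast. Without the 2 shallowest libraries 3 were called in NT-/- mice. With the replicate block by title number, 7 genes were called in NT+/+ mice (gaining Acat2, Pmvk and Sc5d) and 9 in NT-/- mice (gaining Acat2, Idi1, Sqle and Lbr). The replicate block by file number gave 10 (gaining Acat2, Hmgcs1, Pmvk, Fdft1, Tm7sf2 and Sc5d) and 8 (gaining Idi1, Sqle and Stard4). The block raised the calls over all genes too, from 21.6% to 28% and 30.7% in NT+/+ mice and from 25.2% to 31.6% and 31.7% in NT-/- mice. What the numbers stand for is not given, although mice of 1 file number shared their labelled sex. Deviations of same-numbered mice correlated on average at 0.184 by title (19 of 27 pairs over 0.1, lowest -0.127) and 0.227 by file (24 of 27 over 0.1, lowest 0.0672), against -0.0457 and -0.0565 for other numbers, and 8 and 11 of 19 mice correlated best with their own number in every other group. All pairs of the same file number were above 0, but no label says what the numbers mark. The main fit therefore has no block, and whether the mice form matched sets was not settled. With the file block in NT+/+ mice and the title block in NT-/- mice, the called share of the 28 was above that of all genes, not below it. Mylip and Hsd17b7 in both genotypes, Lss in NT+/+ mice and Tm7sf2 in NT-/- mice were called in all 29 alternatives run for each. No gene of the 28 was called for genotype or for the difference between genotypes in any alternative.

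Some log2 fold changes near 0 changed sign. In NT+/+ mice, Ggps1 was 0.00 on the positive side with upper quartile scaling and Npc1l1 -0.00 with no filter. Leaving out single mice gave ranges of -0.09 to 0.04 for Cyp51, -0.18 to 0.01 for Dhcr7, -0.05 to 0.05 for Ggps1, -0.09 to 0.04 for Insig1, -0.01 to 0.19 for Mvd, -0.07 to 0.09 for Npc1l1 and -0.06 to 0.05 for Stard4. In NT-/- mice, the fit with sex as a covariate, which also leaves out replicate 5 of NT-/- Fast because its sex is not labelled, gave -0.05 for Mvd, -0.11 for Mvk, -0.10 for Nsdhl and -0.02 for Srebf2, and leaving out that mouse alone gave -0.05, -0.11, -0.10 and -0.01; the title block gave -0.03 for Mvk and -0.05 for Nsdhl; no filter gave -0.01 for Nsdhl; and leaving out the 2 shallowest libraries gave 0.06 for Dhcr7. Leaving out single mice gave -0.14 to 0.02 for Dhcr7, -0.01 to 0.20 for Hmgcs1, -0.03 to 0.21 for Msmo1, -0.07 to 0.15 for Mvd, -0.11 to 0.09 for Mvk, -0.10 to 0.10 for Nsdhl and -0.06 to 0.08 for Srebf2. The cause was not tested. Grouped by its other label, replicate 5 of NT+/+ Fast left the Nts log2 fold change at -4.70 in fed mice, none of which it moves, while the adjusted p rose to 0.0824; in fasted mice the adjusted p was 0.781. Sampling depth limits Mylip most, with 46 counts in 1 mouse, and TPM gives no depth.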
